A study of Mus musculus with 21 samples.

Results

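The insulin, amylin and prohormone processing genes comprised 10 genes, chosen by symbol for their known roles and not by a measured value: Ins1, Ins2, Iapp, Pcsk1, Pcsk2, Cpe, Scg5, Pcsk1n, Chga and Chgb. They were 10 of the 55536 gene identifiers in the count files and 10 of the 27229 genes that passed the filter on low counts, so every member was tested. Bulk RNA was sequenced from islets of male CBA mice that were 10 weeks old when the diets started. The RD group was kept on regular chow, the HFD group on a high-fat diet and the HFD-O304 group on the same high-fat diet containing 0.8 mg of O304, an activator of the energy sensor AMPK, per gram of diet. Each group had 7 samples, and a library was made from 150 islets picked out of the pooled islets of 5 mice, so animal-to-animal variation is averaged within a sample. The sources do not say that every sample came from a different pool, and p-values therefore measure the spread between these samples, part of which may be technical. Within each group every pair of samples differed by more than sampling noise, so none was treated as a duplicate. A characteristic of HFD-O304 replicate 1 names the high-fat diet alone, while its title names HFD-O304, and the title was followed.

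Insulin is made in beta cells as preproinsulin, which loses its signal peptide in the endoplasmic reticulum and is packed as proinsulin into secretory granules. There the prohormone convertases PC1/3 (Pcsk1) and PC2 (Pcsk2) cut it at pairs of basic residues, and carboxypeptidase E (Cpe) trims the ends. Amylin (Iapp) shares these granules and these enzymes. The chaperone 7B2 (Scg5) is needed for PC2 to mature, proSAAS (Pcsk1n) is an endogenous inhibitor of PC1/3, and the chromogranins A and B (Chga, Chgb) are acidic proteins of the granule matrix that are cut into peptides themselves. Alpha and delta cells share part of this machinery, PC2 above all, so a bulk islet value mixes cell types.

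The 21 libraries held 13809266 to 48922569 read pairs on genes, the shallowest being HFD-O304 replicate 2. All 8 of 8 beta cell markers fixed for the check were above 0 in every sample. The libraries fell into 2 runs of library numbers in the file names, replicates 1 to 4 and replicates 5 to 7 of each group, and values within each run are given beside the results they bear on.

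As a share of all read pairs on genes, the 10 members took 32.7% ± 1.09 (SD, n = 7) in RD islets, 34.8% ± 1.32 in HFD islets and 31.1% ± 1.13 in HFD-O304 islets. Ratios and shares were held to a threshold of adjusted p under 0.05, adjusted over 30 such tests, which is looser than the 0.01 used for calls of single genes. All 3 differences were past 0.05 by the exact two-sided permutation test, with adjusted p = 0.0297 for HFD against RD, 0.0117 for HFD-O304 against HFD and 0.0471 for HFD-O304 against RD. The first was lost in 4 and the last in 11 of 14 repeats that left out 1 sample, at adjusted p up to 0.0540 and 0.0982, and the second in none. Ins1 and Ins2 together accounted for 27.1% ± 0.892, 28.1% ± 1.85 and 25.8% ± 1.12 of pairs in the same order, and only HFD-O304 against HFD passed the threshold (adjusted p = 0.0471, exact permutation test), a call that was lost in 11 of 14 repeats with 1 sample left out. The difference behind it was -0.927 percentage points within replicates 1 to 4 and -3.99 within replicates 5 to 7. For the same share, HFD against RD moved from 0.969 to 1.61 points and passed without HFD replicate 1 (adjusted p = 0.0215), and HFD-O304 against RD passed without RD replicate 7 (adjusted p = 0.0471) or HFD-O304 replicate 3 (adjusted p = 0.0366). Levels were compared between genes as TPM, a length-scaled share of a library in which each count is divided by the exonic length of its gene. In RD islets the order was Ins2 at 325208 ± 8235 TPM, Ins1 at 143713 ± 5082, Iapp at 70844 ± 5288, Chga at 9520 ± 700, Cpe at 2567 ± 99.3, Scg5 at 2151 ± 69.6, Chgb at 1455 ± 190, Pcsk2 at 1133 ± 50.6, Pcsk1 at 385 ± 25.5 and Pcsk1n at 178 ± 112.9 (SD, n = 7). Only Pcsk1 and Pcsk1n, the convertase and its inhibitor, were neighbours in this order whose samples overlapped. The order differed in 1 place between diets. Chgb rose from 7th place to 5th in HFD islets, at 2696 ± 959 TPM, where its samples overlapped those of Cpe and the samples of Cpe overlapped those of Scg5, and in HFD-O304 islets it was 7th at 1225 ± 111.4 TPM and overlapped Pcsk2, as Pcsk1 did Pcsk1n.

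**Figure D1:**
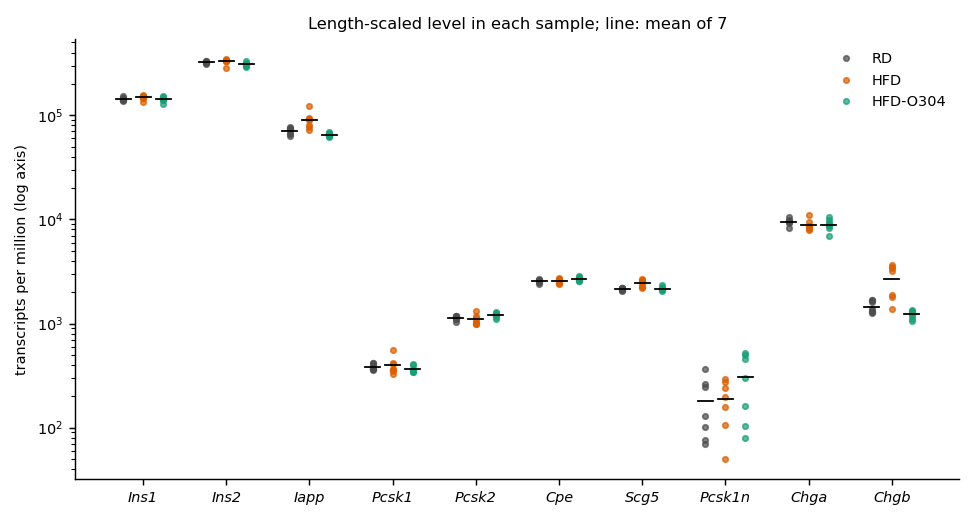
Level of each of the 10 genes in TPM on a log axis, with 1 point per sample, coloured by group, and a line at the mean of 7 samples. Ins2 and Ins1 lie above all other genes in every sample, Pcsk1n spreads most, and Chgb is the gene whose HFD points separate furthest upward.

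Comparison of HFD with RD islets showed 3 of the 10 genes higher and none lower. Chgb was 1.96-fold higher, Iapp 1.33-fold and Scg5 1.19-fold, while neither insulin gene, neither convertase, Cpe, Pcsk1n nor Chga passed the test. Over all genes 3.54% were called in this comparison and 2.0% were called higher (edgeR quasi-likelihood test, Benjamini-Hochberg adjusted p under 0.01). Of the genes tested, 13216 had a mean of at least 50 normalised counts, and all 10 members lie far above that level. The share called among genes of like abundance was not computed, for this comparison or those below. The median log2 fold change of the 10 genes was 0.12, beside -0.0044 over all genes tested. In HFD-O304 against HFD islets 5 of the 10 genes were lower and none was higher, namely Chgb, Iapp, Scg5, Ins2 and Ins1, where 11.9% of all genes were called and 6.79% were called lower. The median of the 10 genes was -0.21, beside 0.027 over all genes. In HFD-O304 against RD islets 0 of the 10 genes were called by edgeR, 2 had an unadjusted p under 0.05 (3912 of the 27229 genes did) and DESeq2 called 0, where edgeR called 1.31% of all genes. The median there was -0.11, beside 0.0078. The HFD samples served in both of the first 2 comparisons and the RD samples in 2 of the 3, so the comparisons are not independent of each other.

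In bulk RNA, fewer cells of a type and less RNA per cell cannot be told apart, and this applies to every value here. The alpha cell hormone Gcg was lower in HFD than in RD islets by a log2 fold change of -1.01 ± 0.12 (SE, adjusted p = 7.27e-06, edgeR) and higher in HFD-O304 than in HFD islets by 1.21 ± 0.12 (adjusted p = 2.55e-08). The delta cell hormone Sst had log2 fold changes of -0.66 ± 0.15 (adjusted p = 0.00646) and 0.88 ± 0.15 (adjusted p = 0.000109). The summed normalised count of 8 alpha cell markers was 860298 to 1071878 in RD, 400442 to 718445 in HFD and 872532 to 1164889 in HFD-O304 islets, so the HFD samples lay below both other groups. Gcg alone was 783179 to 1002458 in RD, 289699 to 608460 in HFD and 818262 to 1103657 in HFD-O304 islets. The sum therefore largely repeats the Gcg result. Of the 8 markers, 5 were called lower and 2, Gc and Ttr, higher for HFD against RD. The part of alpha and delta cells in the values of the 10 genes was not tested.

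**Figure D2:**
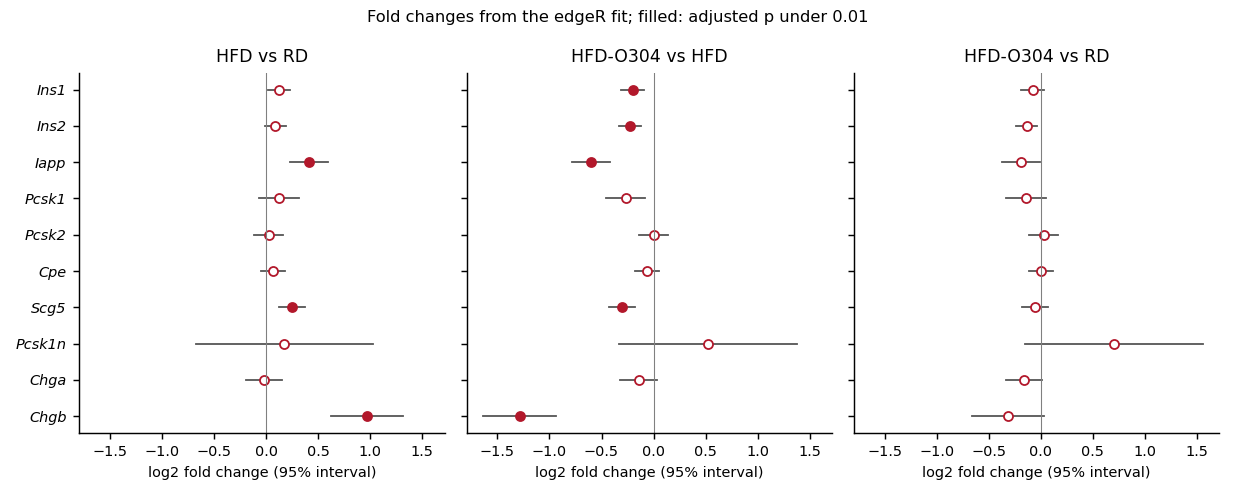
Log2 fold change of each gene with its 95% interval in the 3 comparisons, from a single edgeR fit of 21 samples. Filled points passed adjusted p under 0.01, with 3 filled points to the right of 0 for HFD against RD, 5 to the left for HFD-O304 against HFD and 0 for HFD-O304 against RD.

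Mice carry 2 insulin genes. Ins1 (chr19:52264297-52265476, plus strand, GRCm38) had a normalised count, meaning the read pairs divided by the library's size factor, of 2422707 at the lowest, 2529181 at the median and 2945039 at the highest in RD islets. The values in HFD islets were 2593320, 2814832 and 3216297, and those in HFD-O304 islets were 2327223, 2360929 and 2786458. The 3 ranges overlapped, although 5 of 7 HFD-O304 samples were below the lowest HFD sample. The log2 fold change was 0.12 ± 0.053 (SE, adjusted p = 0.175) for HFD against RD, -0.20 ± 0.053 (adjusted p = 0.00749) for HFD-O304 against HFD and -0.079 ± 0.053 (adjusted p = 0.548) for HFD-O304 against RD. Within replicates 5 to 7 alone Ins1 was called higher in HFD against RD, at 0.18 (adjusted p = 0.00368), beside 0.082 within replicates 1 to 4 (adjusted p = 0.694). The fall with HFD-O304 was near the threshold, since leaving out 9 of the 14 samples in turn (HFD replicates 2, 4, 5 and 6 and HFD-O304 replicates 1, 2, 5, 6 and 7) moved the adjusted p above 0.01, to at most 0.0192. It was also lost with no filter on low counts, with unstranded counts and when only these 2 groups entered the fit, at -0.20, -0.20 and -0.21.

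Ins2 (chr7:142678656-142743381, minus strand), the more abundant of the pair, had 6543271, 7275369 and 7823958 normalised counts at the lowest, median and highest RD sample. HFD islets had 6876209, 7793106 and 8682683, and HFD-O304 islets 5855427, 6539961 and 7326890. Again 5 of 7 HFD-O304 samples were below every HFD sample. The change was 0.09 ± 0.050 (adjusted p = 0.332) for HFD against RD and -0.23 ± 0.050 (adjusted p = 0.00149) for HFD-O304 against HFD, a percent change of -14.6 with a 95% interval from -20.4 to -8.25. Against RD the value was -0.14 ± 0.050 (adjusted p = 0.156). For both insulin genes the fall was called within replicates 5 to 7 alone (-0.27 for Ins1 and -0.32 for Ins2) and not within replicates 1 to 4 alone (-0.17 and -0.17), and neither was called when libraries were scaled by total count without TMM (-0.10 and -0.13), where the median of all genes moved to 0.13 and 67.3% of the called genes were higher, against 42.8% with TMM.

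The 2 insulin transcripts share sequence, which bears on how well their reads can be told apart. The longest run identical in both lies at the 3′ end of the coding sequence and covers 56 bases, at bases 480 to 535 of the Ins1 transcript and 367 to 422 of the Ins2 transcript (GENCODE M21 transcripts). It encodes part of the insulin A chain up to the last codon, at bases 533 and 420, and ends within the stop codon.

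Ins1 and Ins2: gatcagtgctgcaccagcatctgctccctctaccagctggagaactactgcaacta

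Of the 50-base words in Ins1 transcripts, 0.691% also occur in Ins2, and 0.465% of those in Ins2 occur in Ins1. A read pair lying wholly within such a stretch fits both genes. The ratio of Ins1 to Ins2 read counts varied little. Its medians were 0.352 (RD), 0.370 (HFD) and 0.377 (HFD-O304), and no comparison of it passed the threshold (exact permutation tests, adjusted p of 0.263, 0.740 and 0.312). Without HFD-O304 replicate 2, the shallowest library, the log2 difference between HFD-O304 and RD moved from 0.060 to 0.098 and passed (adjusted p = 0.0366).

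Iapp (chr6:142298423-142303961, plus strand) encodes amylin. In RD islets its normalised count ran from 1030872 through a median of 1214148 to 1357370. In HFD islets it ran from 1230299 through 1535168 to 2181290, the highest value being replicate 1, and 5 of 7 samples exceeded every RD sample. In HFD-O304 islets it ran from 955270 through 1027203 to 1121268, and all 7 samples lay below all 7 HFD samples. Iapp was higher in HFD than in RD islets by 0.41 ± 0.089 on the log2 scale (adjusted p = 0.00384) and lower in HFD-O304 than in HFD islets, with a log2 fold change of -0.60 ± 0.089 (adjusted p = 1.34e-05), to 0.657 of the HFD level. Against RD the difference was -0.19 ± 0.089 (adjusted p = 0.309). The first of these calls was lost without RD replicate 1, 6 or 7 or HFD replicate 4, with adjusted p up to 0.0133, and when only the 2 groups entered the fit (adjusted p = 0.0157). Within replicates 1 to 4 alone it was 0.53 and called, and within replicates 5 to 7 alone it was 0.22 and not called (adjusted p = 0.0156). HFD-O304 against HFD was called in both runs, at -0.74 and -0.40. Iapp and Chgb were the 2 of the 10 genes whose groups did not overlap in HFD-O304 against HFD, where 6.17% of all genes had groups that did not overlap and 3.61% had all HFD-O304 samples below all HFD samples.

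Iapp was also set against insulin in the same library. The ratio of Iapp to the sum of Ins1 and Ins2 had medians of 0.121 (RD), 0.145 (HFD) and 0.112 (HFD-O304). The difference was 0.30 on the log2 scale between HFD and RD (adjusted p = 0.0471, exact permutation test) and -0.36 between HFD-O304 and HFD (adjusted p = 0.0200). HFD replicate 1 stood apart at 0.230 and the HFD-to-RD difference was 0.19 without it (adjusted p = 0.0734). That call was lost in 11 of 14 repeats with 1 sample left out, all but those without HFD replicate 5, 6 or 7, at adjusted p up to 0.0897, whereas the HFD-O304 call was lost in none. For HFD against RD, replicates 1 to 4 alone gave 0.48 and replicates 5 to 7 alone 0.054. In HFD-O304 against HFD the corresponding values were -0.57 and -0.095. The smallest p of the exact permutation test is 0.1 with 3 against 3 samples, so no ratio or share could pass within replicates 5 to 7. With 4 against 4 samples it is 0.0286, which became 0.122 after adjustment, and none passed within replicates 1 to 4.

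**Figure D3:**
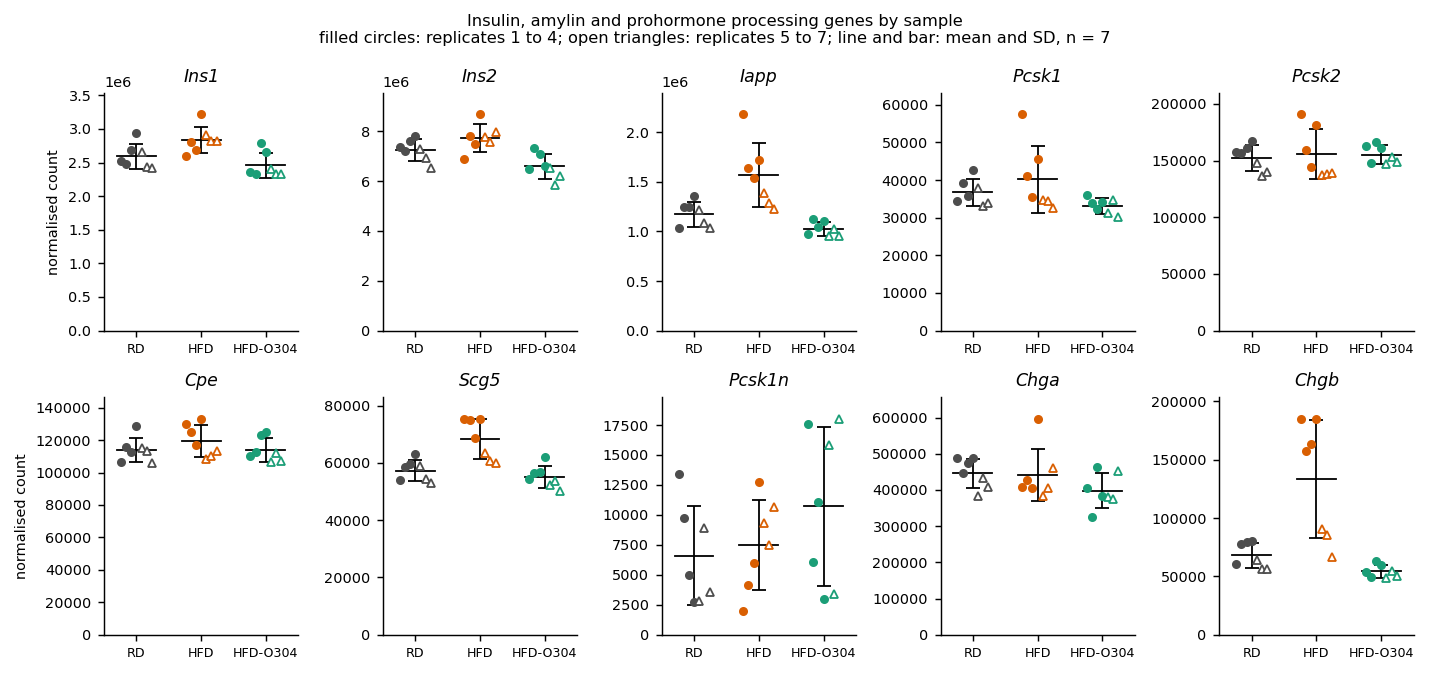
Normalised count for each of the 10 genes, with 1 point per sample in 3 groups, circles for replicates 1 to 4, triangles for replicates 5 to 7, and bars for the mean and SD of 7 samples. HFD replicates 1 to 4 are the highest points for Chgb, Iapp and Scg5, and the Pcsk1n points scatter within every group.

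Pcsk1 (chr13:75089826-75134861, plus strand) encodes PC1/3, the convertase that starts proinsulin cleavage. Its normalised counts were 32978, 35682 and 42777 at the lowest, median and highest RD sample, 32456, 35454 and 57470 in HFD islets and 30125, 33846 and 36077 in HFD-O304 islets. The HFD range contained the RD range, with replicate 1 as the highest. Its change from HFD to HFD-O304 was -0.27 ± 0.093 on the log2 scale with adjusted p = 0.0406, short of the threshold of 0.01. Within replicates 1 to 4 alone this value was -0.41 and within replicates 5 to 7 alone it was -0.074. For HFD against RD the value was 0.12 ± 0.093 (adjusted p = 0.503).

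Pcsk2 (chr2:143546156-143816285, plus strand) encodes PC2, which is also the main convertase of alpha cells. It had medians of 156502, 143993 and 153037 normalised counts in RD, HFD and HFD-O304 islets, and ranges of 136303 to 167136, 136894 to 190826 and 146588 to 166715. The 3 ranges lay on top of each other. The log2 fold change of HFD-O304 against HFD was 0.0021 with a 95% interval from -0.14 to 0.14 (adjusted p = 0.990), and that of HFD against RD was 0.025, with an interval from -0.11 to 0.17 (adjusted p = 0.894). The antisense genes Pcsk2os1 and Pcsk2os2 overlap Pcsk2, and counting without strand gave 0.713 times its stranded count, against 0.999 to 1.004 times in the other 9 genes.

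Cpe (chr8:64592542-64693054, minus strand) was steady. Its medians were 113144 (RD), 116777 (HFD) and 112234 (HFD-O304), and its samples varied by 6.58%, 8.29% and 6.49% (coefficient of variation). Its log2 fold changes were 0.064, -0.065 and -0.0011 in the 3 comparisons (adjusted p of 0.583, 0.496 and 0.996). Relative to insulin, Cpe differed between HFD-O304 and RD islets by 0.12 on the log2 scale (adjusted p = 0.0297, exact permutation test), a difference that passed the threshold in 7 of 14 repeats with 1 sample left out and was lost without RD replicate 1, 3 or 5 or HFD-O304 replicate 1, 4, 6 or 7. The same ratio differed by 0.16 between HFD-O304 and HFD islets, short of the threshold (adjusted p = 0.0724), and by 0.20 without HFD replicate 1, which passed (adjusted p = 0.00874).

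Scg5 (chr2:113776362-113829121, minus strand), the PC2 chaperone 7B2, had 52845, 58495 and 63196 normalised counts at the lowest, median and highest RD sample and 60154, 68861 and 75501 in HFD islets. In HFD-O304 islets the values were 50071, 54383 and 61921. HFD samples lay above every RD sample in 5 of 7 cases, and 6 of 7 HFD-O304 samples lay below every HFD sample. Scg5 rose by 0.25 ± 0.061 from RD to HFD (adjusted p = 0.00996), a call on the edge of the threshold that was lost in 11 of 14 fits with 1 sample left out, at adjusted p up to 0.0333 (all but those without RD replicate 4 or HFD replicate 6 or 7). It was also lost with upper-quartile scaling (adjusted p = 0.0142), TMM without the 10 genes (adjusted p = 0.0116), no filter on low counts (adjusted p = 0.0105), unstranded counts (adjusted p = 0.0102), only these 2 groups in the fit (adjusted p = 0.0224) and within replicates 5 to 7 alone (0.14, adjusted p = 0.0924), and was 0.32 within replicates 1 to 4. It fell by 0.31 ± 0.061 from HFD to HFD-O304 (adjusted p = 0.000488), which held without any 1 sample.

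The chaperone was next set against its enzyme. The ratio of Scg5 to Pcsk2 in the same library had medians of 0.377, 0.438 and 0.350 in RD, HFD and HFD-O304 islets. It was higher in HFD than in RD islets by 0.23 on the log2 scale (adjusted p = 0.0131, exact permutation test) and lower in HFD-O304 than in HFD islets (log2 difference -0.32, adjusted p = 0.00874), with no overlap between those 2 groups. The differences within replicates 1 to 4 and replicates 5 to 7 were 0.26 and 0.18 in the first comparison and -0.29 and -0.35 in the second. The ratio of the 2 convertases, Pcsk1 to Pcsk2, had medians of 0.242, 0.252 and 0.213. It was lower in HFD-O304 than in HFD islets (log2 difference -0.26, adjusted p = 0.00874), again with no overlap, and lower than in RD islets (-0.17, adjusted p = 0.0262), whereas HFD and RD islets differed by 0.086 (adjusted p = 0.262). The p of 0.000583 behind both adjusted p of 0.00874 is the smallest the test can give with 7 against 7 samples. The alpha cell marker sums given above, which are mostly Gcg, were also lower in HFD islets than in both other groups, and their part in these ratios was not tested.

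**Figure D4:**
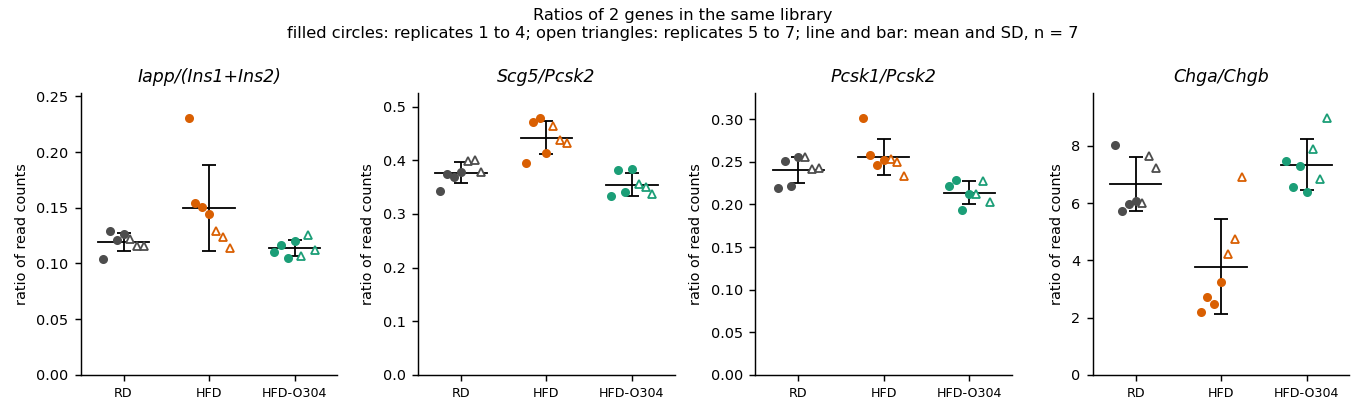
Ratios of read counts of 2 genes in the same library for each sample, with circles for replicates 1 to 4, triangles for replicates 5 to 7, and bars for the mean and SD of 7 samples. Scg5/Pcsk2 and Pcsk1/Pcsk2 do not overlap between HFD and HFD-O304, and the lowest Chga/Chgb ratios are those of HFD replicates 1 to 4.

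Pcsk1n (chrX:7919822-7924410, plus strand), the PC1/3 inhibitor proSAAS, varied most within groups. Its normalised counts ran from 2761 through a median of 4973 to 13409 in RD, from 2023 through 7470 to 12709 in HFD and from 2955 through 11087 to 18040 in HFD-O304 islets. The highest sample exceeded the lowest by 4.86-fold, 6.28-fold and 6.11-fold within the groups. The groups overlapped, although 3 of 7 HFD-O304 samples were above every HFD sample and 3 of 7 were above every RD sample. Its log2 fold changes of 0.18, 0.52 and 0.70 carried standard errors of 0.415 to 0.417 and adjusted p of 0.875, 0.458 and 0.476. The 95% interval of HFD-O304 against RD ran from -0.16 to 1.56, so differences of that size were not detectable in this gene.

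Chga (chr12:102554969-102565028, plus strand), the more abundant chromogranin, had medians of 447406, 408130 and 383590 normalised counts in RD, HFD and HFD-O304 islets. The ranges were 383668 to 487706, 383138 to 597398 and 325117 to 463579. No comparison passed the test, with log2 fold changes of -0.020 (adjusted p = 0.935), -0.14 (adjusted p = 0.292) and -0.16 (adjusted p = 0.404).

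Chgb (chr2:132781278-132795079, plus strand), the other chromogranin, showed the widest change of the 10 genes. RD samples had 56592 normalised counts at the lowest, 64021 at the median and 80133 at the highest. HFD samples had 66963, 157353 and 185209, and HFD-O304 samples 48280, 54123 and 63390. In HFD islets 6 of 7 samples exceeded every RD sample, and all 7 HFD samples exceeded all 7 HFD-O304 samples. The log2 fold change was 0.97 ± 0.17 (SE, adjusted p = 0.000615) for HFD against RD, -1.29 ± 0.17 (adjusted p = 3.32e-06) for HFD-O304 against HFD and -0.32 ± 0.17 (adjusted p = 0.400) for HFD-O304 against RD. Both calls held without any 1 sample, at 0.87 to 1.08 and -1.40 to -1.19.

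The HFD samples of Chgb fell into 2 levels that followed the library numbers. HFD replicates 1, 2, 3 and 4 had 185209, 157353, 163582 and 184478 normalised counts and replicates 5, 6 and 7 had 90735, 85781 and 66963. Within replicates 1 to 4 Chgb was higher in HFD than in RD islets by 1.21 ± 0.10 and within replicates 5 to 7 by 0.46 ± 0.086. HFD-O304 was below HFD, at -1.61 ± 0.10 and -0.66 ± 0.086, and all 4 values passed the test. The difference between the 2 library runs in the effect of HFD-O304 against HFD was 0.94 on the log2 scale with adjusted p = 0.0187 in the interaction test, short of 0.01. In the same test it was -0.74 for HFD against RD (adjusted p = 0.129) and 0.19 for HFD-O304 against RD (adjusted p = 0.884). A further edgeR fit took 1 run difference as common to all groups, which averages over the unlike differences of Chgb. In it replicates 5 to 7 were lower than replicates 1 to 4 for Chgb (-0.51, adjusted p = 0.00230), Pcsk2 (-0.19, adjusted p = 0.00547) and Scg5 (-0.16, adjusted p = 0.00728). These were 3 of the 10 genes, where 2.82% of all genes were called. What the library runs stand for was not given in the sources used here.

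The 2 chromogranins were also compared directly. The ratio of Chga to Chgb in the same library had medians of 6.09, 3.24 and 7.31 in RD, HFD and HFD-O304 islets. HFD was lower than RD by a log2 difference of -0.91 (adjusted p = 0.0146, exact permutation test), and HFD-O304 was higher than HFD by 1.06 (adjusted p = 0.0140). HFD-O304 and RD differed by 0.14 (adjusted p = 0.267). Within replicates 1 to 4 and replicates 5 to 7 the values were -1.28 and -0.42 for HFD against RD and 1.40 and 0.60 for HFD-O304 against HFD.

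Upstream sequence is shown for the 3 genes called in both HFD comparisons and for Pcsk1, because these genes varied together across libraries, as described further on. Pcsk2 and Cpe varied with them too, as given there, so the genes shown are not a distinct set. RefSeq gives the 250 bases before the start site for 8 of the 10 genes (GRCm38.p6), and Ins2 and Cpe were not looked up elsewhere. The stretches below stop at the first base that GENCODE places in an exon, except that for Chgb and Pcsk1 30 bases around a cAMP response element are shown. Capitals mark TGACG on either strand or the complete palindrome TGACGTCA, which contains TGACG once on each strand.

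Chgb, chr2:132781559-132781588, plus strand: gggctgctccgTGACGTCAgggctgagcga

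Pcsk1, chr13:75089768-75089797, plus strand: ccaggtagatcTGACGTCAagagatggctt

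Scg5, chr2:113829122-113829341, minus strand: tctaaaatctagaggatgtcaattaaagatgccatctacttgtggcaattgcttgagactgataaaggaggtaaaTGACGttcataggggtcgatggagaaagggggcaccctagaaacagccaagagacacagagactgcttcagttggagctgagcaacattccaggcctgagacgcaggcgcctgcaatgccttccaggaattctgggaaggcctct

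Iapp, chr6:142298175-142298422, plus strand: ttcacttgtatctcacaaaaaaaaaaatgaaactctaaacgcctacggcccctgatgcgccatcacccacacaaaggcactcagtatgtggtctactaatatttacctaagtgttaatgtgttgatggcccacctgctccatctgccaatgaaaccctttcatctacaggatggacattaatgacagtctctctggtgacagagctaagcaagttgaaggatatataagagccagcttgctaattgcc

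The palindrome TGACGTCA starts 72 bases before the RefSeq start of Chgb and 78 bases before that of Pcsk1, and it occurs in 1.56% of 32536 distinct promoters of the same length. TGACG on either strand occurs in 5 of the 8 genes, namely Chgb, Pcsk1, Pcsk2, Scg5 and Chga, and in 17.9% of all promoters. Neither Ins1, Iapp nor Pcsk1n holds it in this window. These are matches of letters and not measured sites. The Chgb window lies wholly inside a first exon that GENCODE starts further upstream, so RefSeq and GENCODE differ on where this gene begins.

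Across all 21 samples the log2 counts of Iapp, Scg5 and Chgb had Pearson r of 0.949 (Iapp and Scg5), 0.944 (Iapp and Chgb) and 0.943 (Scg5 and Chgb). With each sample taken as its deviation from its group mean the values were 0.881, 0.839 and 0.851, so much of this lay within groups, each of which holds libraries of both runs and of differing depth. Pcsk1 and Iapp had r = 0.850 across samples and 0.906 as deviations. Pcsk1 had 0.768 with Scg5 and 0.744 with Chgb as deviations. Pcsk2 and Cpe ran with these genes too. As deviations Pcsk2 had 0.807 with Iapp, 0.780 with Scg5, 0.806 with Chgb and 0.873 with Pcsk1. The values of Cpe were 0.791, 0.898, 0.743 and 0.720 in the same order. Across samples Pcsk2 had 0.474, 0.497 and 0.466 with Iapp, Scg5 and Chgb, and Cpe had 0.690, 0.781 and 0.661. The insulin genes had 0.836 across samples and 0.715 as deviations with each other. As deviations, Ins1 had 0.160 with Iapp, 0.438 with Scg5 and 0.228 with Chgb, and Ins2 had 0.077, 0.317 and 0.089. Pcsk1n ran opposite to Iapp (-0.432 and -0.581). Libraries also differed in the median log2 deviation of their GC-richest genes, described below. It was -0.265 in HFD replicate 1, which was highest for Iapp and Pcsk1, and 0.153 in RD replicate 1, lowest of RD for Iapp. The other way round, HFD replicate 4 (0.113) exceeded HFD replicate 3 (0.015) in both genes. GC content was 40.5% for Iapp, 40.6% for Pcsk1, 48.1% for Scg5 and 53.9% for Chgb. The part of GC content in these correlations was not tested.

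Among 13206 other genes with a mean of at least 50 normalised counts, the 5 most like Iapp over the 21 samples were Alg5 (r = 0.983), Erlec1 (0.976), Ssr4 (0.975), Reep5 (0.975) and Pole (0.973). Alg5 is a glycosyltransferase of N-glycan synthesis, Ssr4 a subunit of the translocon-associated complex and Erlec1 a lectin of the endoplasmic reticulum. Pcsk1 was most like Kpnb1 (0.937), Trip11 (0.932), Pdia3 (0.926), Gm44250 (0.926) and Swi5 (0.924). Ins1 was most like Ccn1 (0.861), Msn (0.856), Psen2 (0.850), Map4 (0.848) and Bcar3 (0.842), and Ins2 was most like Dusp23 (0.817), Ankrd34b (0.811), Atp6v1f (0.810), Psen2 (0.802) and Pip5k1b (0.802), so both insulin genes had Psen2 in their lists. Chgb, added to this search after its values were seen, was most like Gpx3 (0.983), Ttr (0.975), Cpn1 (0.974), 5330417C22Rik (0.973) and Tmed3 (0.972).

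The genes most like Pcsk1n, also added after its values were seen, were CAAA01147332.1 (0.983), H2afj (0.976), Bmyc (0.975), 1700023F06Rik (0.971) and Tpgs1 (0.969). The median GC content of the longest transcript was 60.7% in the 50 genes most like Pcsk1n, 49.6% in all 13211 genes with a value and 57.3% in Pcsk1n itself. Chga had a GC content of 58.4% and varied less within groups, at counts far above those of Pcsk1n. What this contrast of 2 genes owes to GC content was not tested. The median deviation in a library of the 1321 genes with a GC content of at least 57.7% rose with Pcsk1n across the 21 samples, at Pearson r = 0.914 and Spearman rho = 0.881 (permutation p = 1e-05 for each, the smallest that 100000 permutations give), and at r = 0.884 without the 2 samples farthest from the median. Within groups r was 0.888 in RD (exact permutation p = 0.00655), 0.959 in HFD (p = 0.00298) and 0.927 in HFD-O304 islets (p = 0.00714), with n = 7 each. Spearman rho was 0.821, 0.750 and 0.857 (exact permutation p of 0.0341, 0.0663 and 0.0238), and r without the 2 farthest samples was 0.783, 0.713 and 0.894. These 4 relations were the only ones of their kind computed, and their p were not adjusted. The relation was computed because Pcsk1n scattered. The GC content of the 50 genes most like Pcsk1n and this relation come from the same 21 samples. GC-rich genes that ran with Pcsk1n there favour a positive r here, so the p are not independent support. The part of GC content in the Pcsk1n values was not tested.

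**Figure D5:**
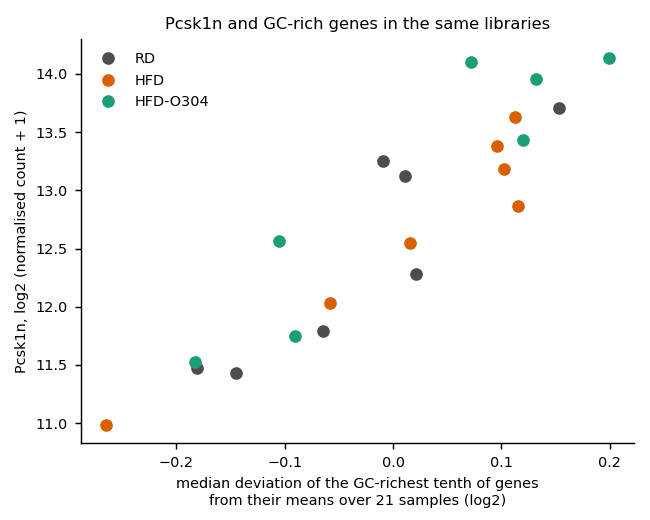
Pcsk1n level of each sample, as log2 of the normalised count plus 1, against the median log2 deviation of the 1321 GC-richest genes in the same library, with 7 points per group. The points rise from left to right in all 3 groups, at r = 0.914 over 21 samples.

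The other genes of the pathway were taken from 4 lists, in which up to 4 genes are named for the number of comparisons in which they were called. Among 11 other granins and granule proteins, 3 were called higher and 2 lower for HFD against RD, and in HFD-O304 against HFD 3 were called higher and 5 lower. Scg2, secretogranin II, rose by 0.38 ± 0.076 with HFD (adjusted p = 0.00200), fell by 0.98 ± 0.077 with O304 on that diet (adjusted p = 1.02e-09), and was lower in HFD-O304 than in RD islets, at -0.60 ± 0.076 (adjusted p = 1.53e-05). Vgf, a neuroendocrine granin-like protein, fell by 2.40 ± 0.29 from HFD to HFD-O304 (adjusted p = 7.63e-07) and by 1.40 ± 0.28 from RD to HFD-O304 (adjusted p = 0.00374), and its value for HFD against RD was 1.01 ± 0.27 (adjusted p = 0.0196). Nucb2, the precursor of nesfatin, rose by 0.97 ± 0.19 with HFD (adjusted p = 0.00189) and fell by 1.58 ± 0.19 from HFD to HFD-O304 (adjusted p = 1.24e-06). Scg3, secretogranin III, rose by 0.40 ± 0.095 (adjusted p = 0.00886) and fell by 0.64 ± 0.096 (adjusted p = 1.79e-05). Scg2 and Vgf were the 2 called in HFD-O304 against RD. The list's median was 0.095, -0.25 and -0.16 in the 3 comparisons.

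Among 18 other processing enzymes, HFD against RD had 1 higher and 2 lower, HFD-O304 against HFD had 3 higher and 4 lower, and HFD-O304 against RD had 1 lower. Cpxm2, a carboxypeptidase-like protein, rose by 0.97 ± 0.22 with HFD (adjusted p = 0.00536) and fell by 0.84 ± 0.21 with O304 (adjusted p = 0.00585), at a mean of only 24.3, 48.0 and 25.9 normalised counts in RD, HFD and HFD-O304 islets. Pcsk6, the convertase PACE4, and Cpm, carboxypeptidase M, moved the opposite way, with -0.49 ± 0.11 (adjusted p = 0.00497) and -0.77 ± 0.15 (adjusted p = 0.00164) for HFD against RD and 0.86 ± 0.11 (adjusted p = 1.96e-06) and 0.81 ± 0.15 (adjusted p = 0.000243) for HFD-O304 against HFD. Qpctl, a glutaminyl cyclase of the Golgi, fell by 0.54 ± 0.064 from HFD to HFD-O304 (adjusted p = 7.83e-07) and by 0.30 ± 0.064 from RD to HFD-O304 (adjusted p = 0.00671). The list's median stood at 0.064, -0.076 and -0.0026.

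Among 22 genes of proinsulin translocation and folding, 2 were higher in HFD than in RD islets, 13 were lower in HFD-O304 than in HFD islets and 1 was lower in HFD-O304 than in RD islets. No gene of this list was called in the opposite direction in any comparison by edgeR. Sec11c, a subunit of the signal peptidase, rose by 0.65 ± 0.12 (adjusted p = 0.000912) and fell by 1.08 ± 0.12 (adjusted p = 2.74e-07). Prdx4, a peroxiredoxin of the endoplasmic reticulum, rose by 0.58 ± 0.11 (adjusted p = 0.00156) and fell by 0.75 ± 0.11 (adjusted p = 1.67e-05). The disulfide isomerase Pdia6 and the chaperone Hspa5 fell by 0.90 ± 0.15 (adjusted p = 6.96e-05) and 0.77 ± 0.16 (adjusted p = 0.000656) from HFD to HFD-O304, and their values of 0.46 and 0.44 for HFD against RD did not pass (adjusted p of 0.0537 and 0.0860). The list's median was 0.22, -0.34 and -0.16, beside -0.0044, 0.027 and 0.0078 over all genes.

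Among 15 regulators of the insulin genes, 0 were called by edgeR in HFD against RD (3 at an unadjusted p under 0.05 and 1 by DESeq2) and 0 in HFD-O304 against RD (4 and 2). In HFD-O304 against HFD the insulin genes were lower and 3 regulators were called higher, where 1382 of the 27229 genes tested were called higher. The 3 regulators were the transcription factors Isl1 (0.43 ± 0.053, adjusted p = 1.40e-06), Neurod1 (0.40 ± 0.061, adjusted p = 1.95e-05) and Foxa2 (0.31 ± 0.083, adjusted p = 0.00957). The list's median was -0.065, 0.15 and 0.11.

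Markers of other cells moved with the same comparisons. Of 8 alpha cell markers, 5 were called lower and 2 higher for HFD against RD, the 2 higher being Gc and Ttr, of which Ttr also stood among the 5 genes most like Chgb. All 8 were called in HFD-O304 against HFD, with 6 higher and those 2 lower. Of 4 delta cell markers, 3 were called lower with HFD against RD and all 4 were called higher with HFD-O304 against HFD. Of 8 beta cell markers, 1 was lower in HFD than in RD islets (Slc2a2) and 3 were higher in HFD-O304 than in HFD islets, and the summed level of the 8 was 180944 to 231223 in RD, 149063 to 200647 in HFD and 186956 to 227508 in HFD-O304 islets. All 5 proliferation markers were higher in HFD than in RD islets and lower in HFD-O304 than in HFD islets. None of the 14 acinar cell markers was called in any comparison by edgeR or DESeq2, or had an unadjusted p under 0.05, and their sum ran from 776 to 331210 normalised counts over the 21 samples. Duct cell markers had 3 of 6 higher, endothelial markers 2 of 6 lower and mesenchymal markers 3 of 6 lower in HFD-O304 than in HFD islets. The macrophage and pancreatic polypeptide cell lists had 1 called gene each in that comparison (Csf1r higher and Pyy higher). The part of these changes in the values of the 10 genes was not tested.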

How the data were processed

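The genes, gene lists and tests were chosen with earlier results of these data known. Islets were isolated by the study from pools of 5 mice, and the authors sequenced TruSeq libraries as 50-base read pairs, aligned them with STAR to GRCm38 with Ensembl annotation and deposited read counts per gene for each sample. Those deposited counts were not normalised, and the stranded column that held 28.8 to 36.3 times the pairs of the opposite strand was used here. Samples were grouped by title, except HFD replicate 3, which was grouped by its diet characteristic. Genes with at least 10 read pairs over 21 samples entered edgeR 4.0.16 (R 4.3.3), with TMM scaling, a single quasi-likelihood fit of the 3 groups, Benjamini-Hochberg adjustment over 27229 genes and a threshold of 0.01. Normalised counts used DESeq2 1.42.0 size factors. SE is the log2 fold change divided by the square root of F, and intervals are 95%. Ratios and shares were compared with exact two-sided permutation tests over 3432 splits, with 30 tests adjusted together at 0.05. Named genes are the 10 members, up to 4 genes per list by number of calls, and the 5 genes most like Ins1, Ins2, Iapp and Pcsk1. Genes named as most like Chgb and Pcsk1n, and single cell type markers, were chosen after their values were seen. The edgeR script was tested on simulated data. Alternatives were other scalings, filters, DESeq2, unstranded counts, fits of only the compared groups, a replicate block, library runs, and each sample left out. The result of 1 marker list is not reported here.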

Additional observations from a re-analysis of the deposited data

Results flagged for a closer look

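Of 60 groups of 7 values examined (10 genes and 10 ratios or shares in 3 groups), 7 had a highest or lowest sample far from the nearest other sample, where chance alone gives about 1 in 20. Cpe in RD islets was highest in replicate 4, at 128429 normalised counts beside 115499 in the next sample. Chga in HFD islets was highest in replicate 4, at 597398 beside 461741. The log2 ratio of Ins1 to Ins2 in HFD-O304 islets was lowest in replicate 2, the shallowest library, at -1.65 beside -1.46. The other 4 all came from HFD replicate 1. Its log2 ratio of Iapp to the sum of both insulin genes was -2.12 beside -2.70, that of Pcsk1 to Pcsk2 was -1.73 beside -1.96, and that of Pcsk1 to the sum of both insulin genes was -7.36 beside -8.01. Its share of read pairs on Ins1 and Ins2 was 24.2%, beside 27.8% in the next lowest HFD sample. The median log2 deviation of the 1321 GC-richest genes was -0.265 in HFD replicate 1, the lowest of the 21 libraries. Its part in these 4 values was not tested.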

How the results depend on the processing

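Of the log2 fold changes of the 10 genes under all alternatives, 726 kept their direction and side of the threshold, 39 lost the call, 1 gained it and 44 changed sign. The number of members called in HFD against RD was 3 and became 1 (Chgb) with only the compared groups in the fit and ranged from 1 to 3 with 1 sample left out. It was 2 (Iapp and Chgb) with upper-quartile scaling, TMM without the 10 genes, no filter and unstranded counts, and 2 (Ins1 and Chgb) within replicates 5 to 7. In HFD-O304 against HFD it was 5 and became 3 (Iapp, Scg5 and Chgb) with total-count scaling and within replicates 1 to 4, and ranged from 4 to 5 with 1 sample left out. In HFD-O304 against RD it stayed 0. Ratios and shares past the threshold numbered 4, 6 and 3 and ranged from 2 to 4, 5 to 7 and 1 to 4 with 1 sample left out. They numbered 0 in all 3 comparisons within replicates 1 to 4, within replicates 5 to 7 and under the replicate block. The smallest p these exact permutation tests can give is 0.0286, 0.1 and 0.0156 there, larger than with 7 against 7 samples. Within replicates 5 to 7 none could pass, and these counts of 0 do not show that differences were absent.

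Sign changes concerned genes and ratios that did not pass the threshold. For HFD against RD they were -0.025 for Pcsk2 with total-count scaling, -0.31 for Pcsk1n within replicates 1 to 4, and -0.047 for Pcsk1, -0.038 for Pcsk2, -0.015 for Cpe and 0.028 for Chga within replicates 5 to 7. For HFD-O304 against HFD, Pcsk2 was -0.0045 with DESeq2, -0.0045 with RLE scaling, -0.0062 with upper-quartile scaling, -0.0045 with TMM without the 10 genes, -0.0050 with the filterByExpr filter, -0.0065 with only the compared groups and -0.089 within replicates 1 to 4, and Cpe was 0.038 with total-count scaling. For HFD-O304 against RD, Cpe was 0.052 with total-count scaling, 0.00094 with filterByExpr, 0.012 with no filter, 0.0030 with unstranded counts and 0.012 within replicates 1 to 4, and Pcsk2 was -0.019 within replicates 1 to 4. Among ratios, HFD against RD within replicates 1 to 4 gave -0.59 for Pcsk1n/Pcsk1, 0.080 for Cpe over insulin and -0.083 percentage points for the insulin share, and within replicates 5 to 7 gave -0.0081 for Pcsk1/Pcsk2 and -0.22 for Pcsk1 over insulin, which was 0.23 in HFD-O304 against HFD and 0.013 in HFD-O304 against RD. With 1 sample left out, HFD against RD ranged from -0.018 to 0.055 for Pcsk2, -0.11 to 0.010 for Chga, -0.090 to 0.49 for Pcsk1n/Pcsk1 and -0.11 to 0.060 for Pcsk1 over insulin. HFD-O304 against HFD ranged from -0.026 to 0.058 for Pcsk2 and -0.080 to 0.089 for Pcsk1 over insulin, and HFD-O304 against RD from -0.025 to 0.040 for Cpe and -0.055 to 0.0089 for Pcsk1 over insulin. The cause was not tested.

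Over all genes, 963, 3230 and 356 were called, against 1758, 4045 and 727 with DESeq2 and 1611, 3795 and 543 with the library run as a covariate. With total-count scaling 46.2%, 67.3% and 48.6% of called genes were higher, against 56.5%, 42.8% and 30.9%. Same-numbered samples correlated at -0.54 to 0.69 over 13216 genes, with 4, 5 and 6 of 7 pairs above 0.1, and in no comparison did every sample match best with its own number. The numbers were not taken to pair the samples. The replicate block gave 1577, 3763 and 543 called genes and left 3, 5 and 0 members called.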
